A study of Homo sapiens with 4 samples.

Results

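The transcripts described here are 71 genes that K562 cells already expressed with an empty vector and that stood higher in both libraries of cells carrying RUNX1::ERG. They were chosen by their measured levels, out of 25702 genes, in CPM, the count of a gene per 1000000 counts of its library. A gene had to reach 1 CPM in both empty vector libraries, which 11906 genes did. Its lower RUNX1::ERG value had to be at least 2.5 times its higher empty vector value, and the ratio of RUNX1::ERG replicate 1 to replicate 2 had to lie from 0.55 to under 1.8. Of the expressed genes, 76 (0.638%) passed the fold limit. ITGA2B, ITGB3, PAK6 and AKAP12, the steepest of these, were set aside by name, and RUNX1 fell outside the ratio limits. Because the RUNX1::ERG and empty vector levels made the selection, the differences of the members are given as a description with no test.

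K562 is an established line of human chronic myeloid leukemia cells. It was transfected with the LeGO-iG2 plasmid, which also makes green fluorescent protein, either carrying the RUNX1::ERG fusion gene or empty, and 2 biological replicates of each were sequenced from poly(A) RNA with no further treatment. The methods do not state whether the cells were sorted for the plasmid before RNA extraction, so a library can hold cells with and without it. The paper reports that its protocol transfected most K562 cells, by flow cytometry of green fluorescent protein, and gives no value for these libraries. More RNA per cell cannot be told apart from more cells with that RNA. Library totals ran from 59695387 to 82352144 counts, and of the counts from 1 to 10 in a library 66.7% to 68.9% were even. Whether both mates of a pair were counted is not given in the sources used here, so the number of fragments behind each value is not known. The lowest count of any member was 61 in an empty vector library and 204 in a RUNX1::ERG library. ERG was at 4 counts in each empty vector library and at 80443 and 27218 counts in RUNX1::ERG replicates 1 and 2, which matched the labels. GAPDH, a housekeeping enzyme, was at 2531 and 2771 CPM with the empty vector and at 2728 and 2750 CPM with RUNX1::ERG.

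RUNX1 is a transcription factor that binds DNA through its Runt domain and is needed for blood stem cells and for the maturation of megakaryocytes, the parent cells of platelets. ERG belongs to the ETS family, whose members bind sites with a GGAA core, and it takes part in blood stem cell and endothelial gene programs. K562 cells hold both erythroid and megakaryocytic potential. Platelets and megakaryocytes signal through integrins, thrombin receptors and thromboxane, and store proteins in granules.

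To show the DNA in front of these genes, the 250 bases before the RefSeq start were searched on both strands for short letters that ETS factors (GGAAGT), Runt domain factors (TGTGGT) and GATA factors (AGATAA) are known to bind. A promoter was found in the RefSeq table for 47 of the 71 genes. The following 5 are printed 5′ to 3′ along each gene because they hold matches of more than 1 kind or several of 1 kind and belong to genes of adhesion (FYB1), prostanoid synthesis (PTGS1, TBXAS1), cyclic nucleotide breakdown (PDE2A) and receptor signalling (PTPN22). Capitals mark the matches on either strand, those on the opposite strand reading as the reverse complement.
FYB1: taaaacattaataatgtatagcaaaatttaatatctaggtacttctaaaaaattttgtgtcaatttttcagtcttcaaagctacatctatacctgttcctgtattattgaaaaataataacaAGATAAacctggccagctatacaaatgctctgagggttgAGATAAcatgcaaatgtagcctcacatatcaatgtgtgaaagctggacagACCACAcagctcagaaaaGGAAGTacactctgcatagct
PTGS1: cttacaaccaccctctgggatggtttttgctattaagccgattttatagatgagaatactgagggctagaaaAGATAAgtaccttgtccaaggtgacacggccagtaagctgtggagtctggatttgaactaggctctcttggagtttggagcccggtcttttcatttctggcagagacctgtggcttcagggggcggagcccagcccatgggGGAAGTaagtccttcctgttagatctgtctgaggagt
TBXAS1: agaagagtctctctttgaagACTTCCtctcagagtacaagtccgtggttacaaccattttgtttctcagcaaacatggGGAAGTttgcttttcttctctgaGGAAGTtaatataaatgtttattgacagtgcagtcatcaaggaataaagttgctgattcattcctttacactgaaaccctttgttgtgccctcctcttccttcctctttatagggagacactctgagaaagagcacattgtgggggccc
PDE2A: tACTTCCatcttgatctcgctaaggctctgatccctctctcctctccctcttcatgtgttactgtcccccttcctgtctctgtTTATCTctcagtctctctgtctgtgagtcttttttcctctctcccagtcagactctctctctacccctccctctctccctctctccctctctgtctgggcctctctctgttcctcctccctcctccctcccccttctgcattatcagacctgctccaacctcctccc
PTPN22: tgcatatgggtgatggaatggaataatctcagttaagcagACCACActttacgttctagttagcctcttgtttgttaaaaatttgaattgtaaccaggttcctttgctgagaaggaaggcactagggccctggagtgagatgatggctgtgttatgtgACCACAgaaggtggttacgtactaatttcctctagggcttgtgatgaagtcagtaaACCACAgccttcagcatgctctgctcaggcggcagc

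The sequences are those of RefSeq on GRCh38.p14, at chr5:39270650-39270899 (minus strand) for FYB1, chr9:122370283-122370532 (plus strand) for PTGS1, chr7:139829014-139829263 (plus strand) for TBXAS1, chr11:72674423-72674672 (minus strand) for PDE2A and chr1:113871713-113871962 (minus strand) for PTPN22. FYB1 held the 3 kinds within 128 bases of its start, with GGAAGT 21 bases and the Runt match 39 bases before it. PTGS1 held GGAAGT 37 bases and AGATAA 178 bases before its start. GGAAGT was present in 13 of the 47 promoters (27.7%), against 24.7% of 9359 promoters of expressed genes and 19.9% of all 27305 in the table. The longer ETS form CCGGAAGT, which contains the shorter form, was in 0 of the 47, against 7.98% of expressed and 3.64% of all promoters, which says only that these letters were not in the windows searched. TGTGGT was present in 2 (4.26%), PTPN22 and FYB1, against 7.11% and 10.9%. Its longer form TGTGGTT was in PTPN22 alone (2.13%), against 2.34% and 3.63%. AGATAA was present in 6 (12.8%), namely NES, PDE2A, BMP10, EGF, FYB1 and PTGS1, against 4.24% and 9.37%. FYB1 was the promoter with both GGAAGT and TGTGGT (2.13%, against 1.87% of expressed and 2.2% of all promoters). A match is a run of letters and not a measured binding site, and no test was made of these shares.

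**Figure D1:**
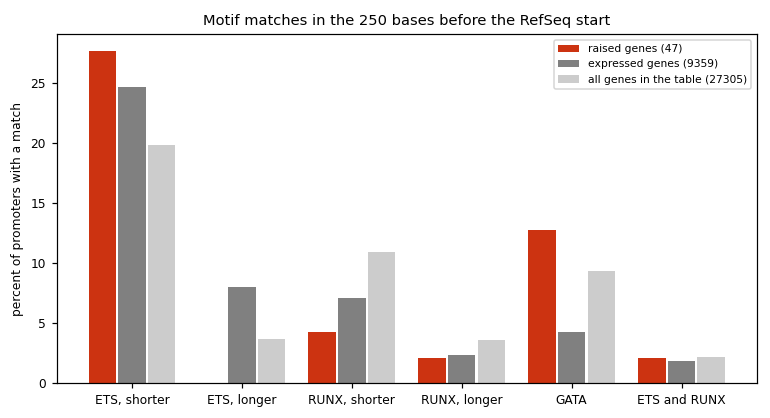
Share of promoters (percent, vertical axis) with a match to each motif in the 250 bases before the RefSeq start, for 47 raised genes, 9359 expressed genes and all 27305 genes in the table. The raised genes have GGAAGT in 27.7% against 24.7% of expressed genes, CCGGAAGT in none, and AGATAA in 12.8% against 4.24%.

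Over the 71 genes, mean RUNX1::ERG CPM was 2.63 to 13.01 times mean empty vector CPM, with a median of 4.13. The fitted log2 difference had a median of 2.01 and ran from 1.35 to 3.65, with standard errors from 0.15 to 0.35. By the stricter ratio of the lower RUNX1::ERG value to the higher empty vector value, 24 genes were at 4 or more, 19 between 3 and 4, and 28 under 3. Most were weakly expressed before the rise: mean empty vector CPM was under 2 in 20 genes and under 10 in 55. All 71 passed an adjusted p of 0.05 in edgeR's quasi-likelihood test, which the choice of members all but fixes and from which nothing is read. Of all 15394 genes tested, 3.64% were called higher and 1.15% lower, and in 28.4% both RUNX1::ERG libraries lay above both empty vector libraries.

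**Figure D2:**
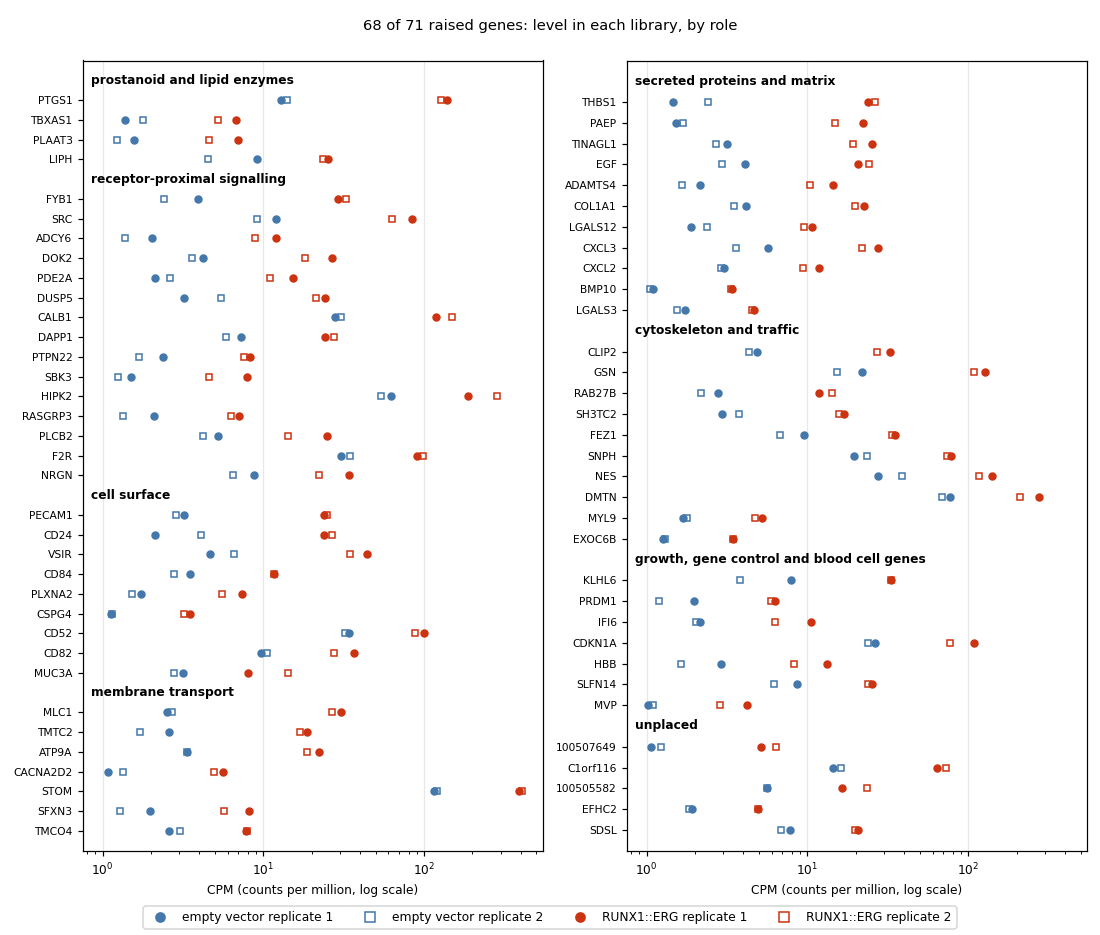
CPM (log scale, horizontal axis) of 68 of the 71 genes in the 4 libraries, grouped by role. Circles are replicate 1 and squares replicate 2, blue for the empty vector and red for RUNX1::ERG. In every gene drawn both red points lie to the right of both blue points, which the selection required.

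The replicate limits were wide, and the replicates were not equal in all of these genes. The ratio of RUNX1::ERG replicate 1 to replicate 2 ran from 0.566 to 1.74 with a median of 1.11. It lay from 0.9 to 1.1 in 21 genes. Replicate 1 was the higher in 52 of the 71 (73.2%), against 50.2% of the expressed genes. ERG and RUNX1, which hold the reads of the plasmid as well as of the cell's own genes, were also higher in that library: ERG was at 977 and 380.2 CPM and RUNX1 at 804 and 402 CPM in replicates 1 and 2. The part of the plasmid level in the replicate difference was not tested. The ratio limits removed little, since 97.6% of the expressed genes lay inside them. The median size of the log2 ratio between RUNX1::ERG replicates was 0.221 in the members and 0.191 in the expressed genes, and between empty vector replicates it was 0.263 and 0.208. By these medians the replicates of the members were no closer than those of the expressed genes.

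At the fold limit, the genes just inside were SDSL (2.51), NRGN (2.52), MUC3A (2.54), LIPH and EFHC2 (2.57 each). Just outside were SELENOM and UBA7 (2.48 each), COL15A1 and CD47 (2.43 each) and FAM222A (2.42). At the upper ratio limit PLCB2 (1.74), SBK3 (1.71), IFI6 (1.67), HBB (1.62) and NRGN (1.53) were inside and RUNX1 (2.00) was outside. At the lower limit MUC3A (0.566), HIPK2 (0.658), the gene with NCBI number 100505582 (0.701), CALB1 (0.805) and the gene with NCBI number 100507649 (0.81) were the nearest inside, and no raised gene was outside. CCL5, an inflammatory chemokine stored in platelets, missed the expression minimum at 0.955 and 0.970 CPM with the empty vector and reached 13.9 and 9.79 CPM with RUNX1::ERG. It is 1 of 63 genes under that minimum that passed the fold limit with at least 2.5 CPM in both RUNX1::ERG libraries. In 8 of the 63 the replicate ratio was 1.8 or more, among them ERG itself, the receptor gene FLT4 and the prostacyclin receptor gene PTGIR.

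**Figure D3:**
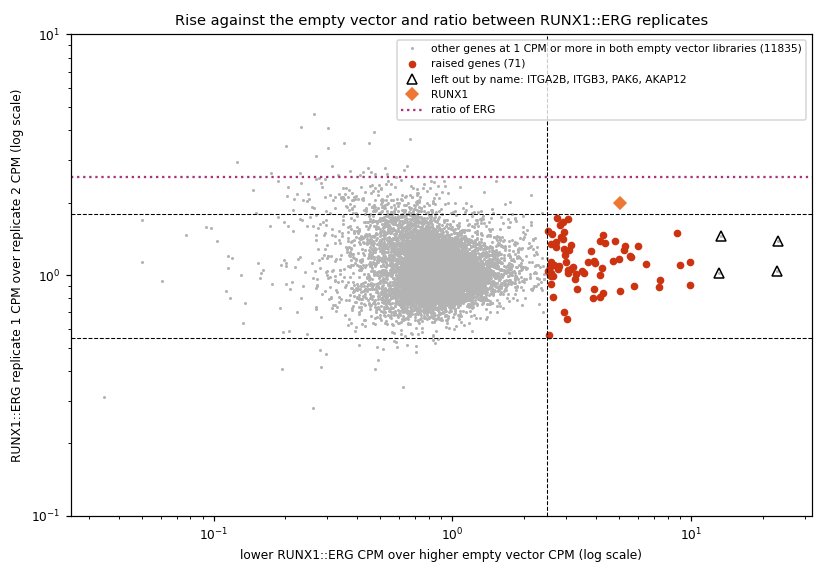
Lower RUNX1::ERG CPM over higher empty vector CPM (log scale, horizontal axis) against RUNX1::ERG replicate 1 over replicate 2 (log scale, vertical axis) for the 11906 expressed genes. Dashed lines are the limits of the selection, red points the 71 raised genes, triangles the 4 genes set aside by name, the diamond RUNX1, and the dotted line the ratio of ERG (2.57). The red points span 0.566 to 1.74 on the vertical axis, and most grey points to their left lie in the same band.

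In the values that follow, each pair is replicate 1 and then replicate 2, and n is 2 libraries in each group. Positions are those of GENCODE on GRCh37 and cover the whole gene.

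Prostanoid and lipid enzymes came to 4 members, with a median of 3.96-fold by the means. PTGS1, cyclooxygenase 1, which makes the precursor of thromboxane (chr9:125132809-125157982), was at 12.9 and 14.1 CPM with the empty vector and at 140 and 127 CPM with RUNX1::ERG, 9.87-fold by the means. Its log2 difference of 3.26 (standard error 0.18) was the fourth largest of the members. TBXAS1, thromboxane synthase, which uses the product of PTGS1 (chr7:139476850-139720125), was at 1.37 and 1.78 CPM and at 6.73 and 5.22 CPM, 3.79-fold. Per kilobase of exon, PTGS1 was at the higher level of these enzymes, at 23.0 CPM per kb against 0.967 for TBXAS1 with RUNX1::ERG. PLAAT3, a phospholipase and acyltransferase, was at 1.57 and 1.23 CPM with the empty vector and 6.96 and 4.61 CPM with RUNX1::ERG. LIPH, a lipase that produces lysophosphatidic acid, was at 9.13 and 4.52 CPM and at 25.3 and 23.4 CPM. Its empty vector replicates lay 2.02-fold apart, and its log2 difference ran from 1.41 to 2.35 when each library was left out in turn.

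Receptors, adaptors, kinases and second messenger enzymes formed the largest group, with 15 members and a median of 4.52-fold. F2R, the thrombin receptor of platelets and endothelium, was at 30.6 and 34.7 CPM with the empty vector and at 90.0 and 98.3 CPM with RUNX1::ERG, 2.88-fold. Downstream of such receptors, PLCB2, a phospholipase C that releases diacylglycerol, was at 5.19 and 4.22 CPM and at 24.8 and 14.3 CPM. RASGRP3, an exchange factor for Ras and Rap that diacylglycerol activates, was at 2.09 and 1.34 CPM and at 7.08 and 6.27 CPM. In these 3 genes the RUNX1::ERG replicates were closest in F2R and farthest apart in PLCB2. The exon sequence of RASGRP3 shares 13.7% of its bases with FAM98A on the other strand, and the strand setting of the counts is not given in the sources used here.

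FYB1 (chr5:39105354-39274630), an adaptor that links receptor signals to integrins in platelets and T cells, was at 3.94 and 2.40 CPM with the empty vector and at 29.1 and 32.6 CPM with RUNX1::ERG. This was 9.72-fold by the means, with a log2 difference of 3.25 (standard error 0.26). SRC (chr20:35973088-36034453), the tyrosine kinase that acts below integrins, was at 11.9 and 9.11 CPM and at 83.7 and 63.4 CPM, 6.996-fold. DOK2, a docking protein that restrains tyrosine kinase signals in blood cells, was at 4.24 and 3.58 CPM and at 26.7 and 18.2 CPM, 5.74-fold. The group thus held both a kinase and proteins known to dampen kinases. PTPN22, a phosphatase that dampens antigen receptor signals, was at 2.36 and 1.68 CPM and at 8.26 and 7.61 CPM. DUSP5, a nuclear phosphatase of ERK, was at 3.23 and 5.44 CPM and at 24.3 and 21.3 CPM. DAPP1, an adaptor that binds phosphoinositides, was at 7.27 and 5.83 CPM and at 24.1 and 27.7 CPM. The empty vector values of DUSP5 stood at a ratio of 0.595, and its log2 difference ran from 1.99 to 2.81 with each library left out.

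Both sides of cyclic nucleotide signalling were present. ADCY6, an adenylyl cyclase that makes cyclic AMP, was at 2.03 and 1.38 CPM with the empty vector and at 12.1 and 8.83 CPM with RUNX1::ERG, 6.13-fold. PDE2A, a phosphodiesterase that breaks down cyclic AMP and cyclic GMP, was at 2.11 and 2.62 CPM and at 15.2 and 10.9 CPM, 5.53-fold. Calcium handling was represented by CALB1, the calcium buffer calbindin, at 27.9 and 30.6 CPM and at 119 and 148 CPM. NRGN, a calmodulin-binding protein of neurons that platelets also carry, was at 8.81 and 6.43 CPM and at 33.9 and 22.2 CPM. HIPK2 (chr7:139246316-139477797), a nuclear kinase of stress signalling, lies beside TBXAS1. It was at 62.1 and 53.7 CPM with the empty vector and at 188 and 285 CPM with RUNX1::ERG, and its replicate 2 was the higher. SBK3, an SH3-binding kinase, was at 1.51 and 1.26 CPM and at 7.89 and 4.61 CPM.

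The cell surface group had 9 members, with a median of 3.73-fold. PECAM1 (CD31), an adhesion receptor of platelets, leukocytes and endothelium, was at 3.22 and 2.87 CPM with the empty vector and at 23.8 and 24.9 CPM with RUNX1::ERG, 8.01-fold. Its log2 difference was 2.96 (standard error 0.22). Of 9 endothelial markers, whose summed level was 5.21 and 4.81 CPM with the empty vector and 28.6 and 27.8 CPM with RUNX1::ERG, PECAM1 made up most of the sum. KDR, TEK and EMCN had at most 10 counts in any library, while CDH5 was at 0 and 4 counts and at 27 and 12 counts. Of the 9, 6 were tested in edgeR and 2 were called higher, PECAM1 and ROBO4, against 3.64% of all genes tested. The call of PECAM1 follows from its selection. ROBO4 was at 2 and 0 counts and at 64 and 12 counts (edgeR adjusted p = 0.0454), so the low-count filter kept it through RUNX1::ERG. VSIR, an immune checkpoint receptor, was at 4.66 and 6.53 CPM and at 43.9 and 34.4 CPM, 6.995-fold. CD84, a SLAM family receptor of platelets and leukocytes, was at 3.50 and 2.80 CPM and at 11.7 and 11.6 CPM. CD84 was among the genes whose RUNX1::ERG replicates were closest, at a ratio of 1.01.

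CD52, a short surface glycoprotein of leukocytes, was at 33.9 and 32.2 CPM with the empty vector and at 99.4 and 88.0 CPM with RUNX1::ERG. CD82, a tetraspanin, was at 9.73 and 10.6 CPM and at 36.9 and 27.5 CPM. CD24, a surface glycoprotein of progenitors, was at 2.11 and 4.11 CPM and at 23.9 and 26.6 CPM. Near-identical copies of CD24 exist in the genome, so its counts are uncertain, and its log2 difference ran from 2.54 to 3.57 with each library left out, the widest range of the members. PLXNA2, a semaphorin receptor, was at 1.74 and 1.52 CPM and at 7.32 and 5.50 CPM. CSPG4, a membrane proteoglycan, was at 1.12 and 1.15 CPM and at 3.50 and 3.21 CPM. MUC3A, a membrane mucin with repeats that make read placement uncertain, was at 3.15 and 2.79 CPM and at 8.01 and 14.2 CPM. It had the lowest ratio of RUNX1::ERG replicates of all members, 0.566.

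Secreted and matrix proteins numbered 12 and had the highest median of the groups, 5.39-fold. THBS1 (chr15:39873280-39891667), thrombospondin 1, an adhesive protein of platelet granules, was at 1.46 and 2.40 CPM with the empty vector and at 23.9 and 26.3 CPM with RUNX1::ERG. The ratio of means was 13.01, the largest of the 71, and the log2 difference was 3.65 (standard error 0.29). Its exons share 4.89% of their bases with FSIP1 on the other strand. PAEP, the lipocalin glycodelin, was at 1.52 and 1.69 CPM and at 22.1 and 14.8 CPM, 11.5-fold. EGF, a growth factor that platelets release, was at 4.07 and 2.95 CPM and at 20.6 and 24.0 CPM, 6.36-fold.

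Matrix genes were present as well. COL1A1, the main chain of type I collagen, was at 4.17 and 3.48 CPM with the empty vector and at 22.6 and 19.6 CPM with RUNX1::ERG, 5.51-fold. COL1A2, the other chain of type I collagen, was at 1.98 and 2.49 CPM and at 2.57 and 2.39 CPM and was not called (log2 difference 0.11, edgeR adjusted p = 0.917). The 9 fibroblast markers summed to 6.35 and 6.61 CPM and to 25.7 and 22.6 CPM, of which COL1A1 was most with RUNX1::ERG. DCN, LUM, PDGFRA and FAP had at most 10 counts in any library. Of 4 tested, 1 was called higher, against 3.64% of all genes tested. It was COL1A1, whose call follows from its selection. TINAGL1, a protein of basement membranes, was at 3.17 and 2.72 CPM and at 25.2 and 19.1 CPM, 7.52-fold. ADAMTS4, a protease that cuts aggrecan, was at 2.16 and 1.65 CPM and at 14.4 and 10.4 CPM, 6.48-fold.

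The chemokines CXCL3 and CXCL2, which draw neutrophils, lie close together on chromosome 4 and share much of their sequence, so the split of reads between them is uncertain. CXCL3 was at 5.68 and 3.62 CPM with the empty vector and at 27.3 and 21.7 CPM with RUNX1::ERG. CXCL2 was at 3.02 and 2.91 CPM and at 11.8 and 9.35 CPM. LGALS12 and LGALS3 encode galectins, which bind sugars: LGALS12 was at 1.88 and 2.39 CPM and at 10.7 and 9.51 CPM. LGALS3 was at 1.74 and 1.54 CPM and at 4.65 and 4.54 CPM. BMP10, a ligand of the BMP family, stood near the expression minimum at 1.09 and 1.05 CPM and reached 3.41 and 3.34 CPM.

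Cytoskeleton and vesicle traffic genes numbered 11, with a median of 3.99-fold. GSN (chr9:123970072-124095121), gelsolin, which cuts actin filaments and is abundant in platelets, was at 21.7 and 15.2 CPM with the empty vector and at 127 and 109 CPM with RUNX1::ERG, 6.39-fold. MYL9, a regulatory light chain of myosin and a known target of RUNX1 in platelets, was at 1.68 and 1.78 CPM and at 5.21 and 4.72 CPM, 2.88-fold. RAB27B, a small GTPase of platelet dense granules, was at 2.76 and 2.19 CPM and at 11.9 and 14.1 CPM, 5.25-fold. Among these 3, GSN was also highest per kilobase of exon with RUNX1::ERG, at 10.7 CPM per kb, against 1.77 for MYL9 and 1.82 for RAB27B. MYL9 has close relatives among the myosin light chain genes, so its counts are uncertain.

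DMTN, dematin, which ties actin to the red cell membrane, was at 77.1 and 68.9 CPM with the empty vector and at 275 and 211 CPM with RUNX1::ERG. NES, the intermediate filament nestin, was at 27.4 and 39.0 CPM and at 140.7 and 116.3 CPM. SNPH, syntaphilin, which anchors mitochondria to microtubules, was at 19.4 and 23.5 CPM and at 78.2 and 74.0 CPM. Other members of this group are better known from neurons. FEZ1, a kinesin adaptor, was at 9.53 and 6.79 CPM and at 34.8 and 33.4 CPM. CLIP2, a microtubule linker, was at 4.87 and 4.36 CPM and at 32.7 and 27.2 CPM, 6.49-fold. The smallest of the group was EXOC6B, a subunit of the exocyst that tethers vesicles. It was at 1.27 and 1.30 CPM and at 3.44 and 3.46 CPM, with replicates at a ratio of 0.992. SH3TC2, an endosome protein, was at 2.95 and 3.73 CPM and at 17.0 and 15.8 CPM.

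Membrane transport and other membrane proteins numbered 8, with a median of 4.29-fold. STOM (chr9:124101265-124132582), stomatin, a red cell membrane protein that controls ion channels, was at 115.6 and 119.8 CPM with the empty vector and at 391 and 405 CPM with RUNX1::ERG, 3.38-fold. Per kilobase of exon it was the most abundant member in both groups, at 36.8 and 124 CPM per kb, with CD52 next at 35.4 and 100.3 CPM per kb. STOM lies directly beside GSN, and HIPK2 beside TBXAS1, among the genes tested. MLC1 (chr22:50497820-50523855), a membrane protein known from astrocytes, was at 2.51 and 2.70 CPM and at 30.5 and 26.8 CPM, 11.0-fold, with a log2 difference of 3.41 (standard error 0.22). ATP9A, a lipid flippase of endosomes, was at 3.35 and 3.33 CPM and at 22.3 and 18.7 CPM, 6.14-fold. With MLC1 and ATP9A, TMTC2, a membrane protein of the endoplasmic reticulum, had the largest ratios of the group. It was at 2.60 and 1.71 CPM and at 18.7 and 16.8 CPM, 8.26-fold. CACNA2D2, an auxiliary subunit of calcium channels, was at 1.09 and 1.34 CPM and at 5.62 and 4.95 CPM. SFXN3, a mitochondrial serine transporter, was at 1.98 and 1.28 CPM and at 8.14 and 5.67 CPM. TMCO4, whose role is not described here, had nearly equal RUNX1::ERG replicates, with 2.58 and 3.02 CPM and then 7.83 and 7.87 CPM.

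The remaining 7 genes with a known role act in growth control, gene control or blood cells, with a median of 3.88-fold. CDKN1A, an inhibitor of cyclin-dependent kinases (chr6:36644237-36655114), was at 26.4 and 23.7 CPM with the empty vector and at 108 and 76.7 CPM with RUNX1::ERG. PRDM1, a transcriptional repressor that acts in lymphocyte maturation, was the DNA-binding factor of the list, at 1.96 and 1.20 CPM and at 6.29 and 5.97 CPM. KLHL6, an adaptor of ubiquitin ligases, was at 7.96 and 3.81 CPM and at 33.0 and 33.0 CPM. In KLHL6 the RUNX1::ERG replicates were nearly the same while the empty vector replicates lay 2.09-fold apart, the widest gap of the members, and its log2 difference ran from 2.04 to 3.04 with each library left out. IFI6, an interferon-induced protein of which 23.1% of exon bases lie in a lncRNA model on the same strand, was at 2.16 and 2.04 CPM and at 10.5 and 6.31 CPM. SLFN14, an endoribonuclease linked to an inherited platelet disorder, was at 8.61 and 6.23 CPM and at 25.3 and 23.9 CPM. MVP, the main protein of vault particles, was at 1.02 and 1.09 CPM and at 4.21 and 2.85 CPM.

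HBB, the adult beta-globin gene, was at 2.90 and 1.64 CPM with the empty vector and at 13.3 and 8.20 CPM with RUNX1::ERG, and its near copies among the globin genes make these counts uncertain. The 30 erythroid markers, HBB among them, summed to 14755 and 14813 CPM and to 17559 and 16508 CPM. Of the 30 tested, edgeR called 4 higher and 1 lower, against 3.64% and 1.15% of all genes tested. The 4 were AHSP, EPOR, RHD and HBB, and the call of HBB follows from its selection. The gene called lower was CA1. Of 16 megakaryocyte and platelet markers, whose sum was 107 and 103 CPM and 552 and 471 CPM, 9 were tested and 7 were called higher. ITGA2B and ITGB3, set aside from the members by name, carried much of the sum with RUNX1::ERG. Without them the sums were 91.6 and 89.9 CPM and 217 and 213 CPM, of which TUBB1 was most. Of the 7 tested without them, 5 were called higher, against 3.64% of all genes tested. PF4, PPBP, VWF and MMRN1, among the 5, had at most 8 counts in an empty vector library. The low-count filter kept them through their RUNX1::ERG counts, so the share describes the genes tested and not all markers. GP1BB, GP9, GP5, TREML1 and CLEC1B, which mark mature megakaryocytes and platelets, had at most 10 counts in any library. Other such genes of the list were detected. GP6 was at 32.0 and 20.6 CPM and at 43.7 and 33.9 CPM, and GP1BA at 1.04 and 0.601 CPM and at 1.92 and 0.992 CPM. Neither was called. SELP had 0 counts in both empty vector libraries and 18 and 8 counts with RUNX1::ERG. Monocyte markers summed to 67.4 and 72.2 CPM and to 134 and 114 CPM, and NK cell markers to 9.62 and 9.18 CPM and to 21.0 and 16.1 CPM. Of 11 monocyte markers tested 4 were called higher and 0 lower, and of 5 NK cell markers 2 and 0, against 3.64% and 1.15% of all genes tested. GNLY, 1 of the NK cell markers called, had 6 and 0 counts with the empty vector, so the filter kept it through RUNX1::ERG. Granulocyte, T cell, B cell, mast cell and epithelial markers did not lie, by their sums, above both empty vector libraries in both RUNX1::ERG libraries. The part of other cell types in the levels of the members was not tested.

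The other 5 members have no role assigned here. C1orf116 was at 14.5 and 16.2 CPM with the empty vector and at 63.8 and 72.9 CPM with RUNX1::ERG. SDSL, a relative of serine dehydratase, was at 7.82 and 6.83 CPM and at 20.5 and 19.6 CPM, and neither is known as a blood cell gene. EFHC2 was at 1.91 and 1.83 CPM and at 4.93 and 4.90 CPM, the smallest ratio of means, 2.63. The gene with NCBI number 100507649 was at 1.07 and 1.23 CPM and at 5.14 and 6.34 CPM. The gene with NCBI number 100505582 was at 5.63 and 5.59 CPM and at 16.5 and 23.5 CPM, and neither was matched to a symbol. Of the 71, 67 had positions on GRCh37, and chromosome 1 held 12 and chromosome 11 held 7. The share of all genes on these chromosomes is not given here, so nothing is read from these counts.

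To see the members beside other genes of the same pathways, 13 gene lists were counted in the edgeR test over all genes. The lists held 20 of the members, and 451 of their other genes were tested, ITGA2B and ITGB3 among them. Of these 451, 62 (13.7%) were called higher and 10 (2.22%) lower, against 3.64% and 1.15% of all genes tested. A filter on low counts can keep a gene because it rose, so these shares describe the genes tested and not whole lists. No test compared the lists with other genes.

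The megakaryocyte and platelet list, with THBS1 and F2R as members, had 11 of 25 other tested genes higher (44%) and 0 lower, with a median log2 difference of 1.06 against -0.00167 over all genes tested. ITGB3 and ITGA2B, the chains of the fibrinogen receptor, are 2 of the 11 and were set aside by name. Both passed the limits of the selection, so their calls follow from it as those of the members do. PF4, PPBP, VWF and MMRN1, also among the 11, had at most 8 counts in an empty vector library. The low-count filter kept these through their RUNX1::ERG counts, so the 44% is not a share of the whole list. PPBP, a platelet granule chemokine, was at 0.0335 and 0.0820 CPM with the empty vector and at 18.9 and 20.4 CPM with RUNX1::ERG (edgeR adjusted p = 1.73e-06). NFE2, a factor of platelet formation, did not pass, at 308 and 311 CPM and at 306 and 288 CPM (log2 difference -0.10, adjusted p = 0.795). Its difference was smaller than its standard error of 0.14. In the platelet signalling list, with FYB1, SRC and DOK2 as members, 7 of 35 others were higher (20%) and 1 lower. RGS18, a platelet regulator of G proteins, was at 0.0335 and 0.0683 CPM and at 2.96 and 4.05 CPM (edgeR adjusted p = 0.000132). PIK3CG, a phosphoinositide kinase, rose from 36.9 and 34.4 CPM to 78.4 and 80.0 CPM (log2 difference 1.11, adjusted p = 0.00302). ITPR3, a calcium channel of the endoplasmic reticulum, fell from 157 and 125 CPM to 67.6 and 64.6 CPM (log2 difference -1.13, adjusted p = 0.00302).

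The endothelial and ETS-linked list, with PECAM1 as member, had 11 of 40 others higher (27.5%) and 2 lower. ANGPT1, a ligand of the TEK receptor, rose from 78.5 and 66.2 CPM to 147 and 165 CPM (log2 difference 1.07, edgeR adjusted p = 0.00415). HHEX and ICAM1 fell, HHEX from 123 and 91.2 CPM to 44.9 and 48.0 CPM (log2 difference -1.24, edgeR adjusted p = 0.00286). ICAM1 did not pass without RUNX1::ERG replicate 2 (-0.86). In the lipid and eicosanoid list, with PTGS1 and TBXAS1, 3 of 28 others were higher (10.7%) and 0 lower. FADS1, a fatty acid desaturase, rose from 866 and 730 CPM to 1608 and 1513 CPM (log2 difference 0.93, edgeR adjusted p = 0.00302). PTGIR, the prostacyclin receptor, rose from 1.36 and 0.861 CPM to 8.29 and 3.72 CPM (log2 difference 2.40, adjusted p = 0.009), and without RUNX1::ERG replicate 1 it did not pass the threshold (1.73). In the granule and vesicle list, which held RAB27B, 5 of 31 others were higher (16.1%) and RAB27A was lower. SYT11, a vesicle protein, rose from 0.804 and 0.560 CPM to 2.90 and 2.60 CPM (log2 difference 1.98, edgeR adjusted p = 0.0135), and HPS1, needed for platelet dense granules, from 66.3 and 60.2 CPM to 124 and 102 CPM (log2 difference 0.80, adjusted p = 0.0202). Neither passed without RUNX1::ERG replicate 1 (1.91 and 0.67). RAB27A, the close relative of RAB27B, went from 273 and 148 CPM to 105.9 and 116.5 CPM (log2 difference -0.95, adjusted p = 0.0457), while RAB27B was higher. Without empty vector replicate 1 the RAB27A difference was -0.49 and did not pass, nor did it without RUNX1::ERG replicate 1 (-0.87), with library totals alone (-0.92) or in limma voom (-0.89).

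Lists whose share lay nearer the background were led by the protein kinase C and diacylglycerol list, with RASGRP3 and PLCB2 as members, where 1 of 29 others was higher (3.45%) and 1 lower. DGKG, a diacylglycerol kinase, was the gene called higher, at 0.067 and 0.082 CPM and at 0.680 and 0.531 CPM (edgeR adjusted p = 0.0289). PLCD1, a phospholipase C, fell from 282 and 218 CPM to 154 and 136 CPM (log2 difference -0.82, adjusted p = 0.018). In the immediate-early and ERK feedback list, with DUSP5, 2 of 44 others were higher (4.55%) and 2 lower. NR4A2 rose from 6.33 and 5.38 CPM to 12.9 and 13.4 CPM (log2 difference 1.13, edgeR adjusted p = 0.0174), and the ERK pathway inhibitor SPRY4 fell from 40.0 and 35.3 CPM to 19.6 and 19.3 CPM (log2 difference -0.99, adjusted p = 0.0106). In the list of cell cycle inhibitors, with CDKN1A, 2 of 32 others were higher (6.25%) and 1 lower. BTG2, which restrains proliferation, rose from 53.1 and 55.0 CPM to 143 and 131 CPM (log2 difference 1.30, edgeR adjusted p = 0.00099), and HES1 fell from 20.7 and 17.7 CPM to 7.37 and 7.01 CPM (log2 difference -1.46, adjusted p = 0.00298). Without RUNX1::ERG replicate 1, DGKG (2.77), PLCD1 (-0.90), NR4A2 (1.17) and SPRY4 (-0.99) did not pass, and DGKG did not without replicate 2 either (3.08).

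In the actin and adhesion list, with GSN and MYL9, 7 of 65 others were higher (10.8%), ABLIM3 and PDLIM1 first, and 1 was lower. PDLIM1 did not pass without RUNX1::ERG replicate 1 (0.67). The gene called lower was VIM, the intermediate filament vimentin, from 712 and 797 CPM to 319 and 367 CPM (log2 difference -1.18, edgeR adjusted p = 0.00175), whereas the intermediate filament gene NES was higher. The RUNX1-linked list, with MYL9, had 3 of 28 others higher (10.7%) and 0 lower. These were PF4 and TUBB1, both counted in the megakaryocyte and platelet list as well, and the cyclin CCND3. PF4 had 0 and 2 counts with the empty vector, and the low-count filter kept it through its RUNX1::ERG counts. CCND3 rose from 342 and 365 CPM to 806 and 681 CPM (log2 difference 1.03, edgeR adjusted p = 0.00311). The TGF-beta list, with COL1A1, had 3 of 30 higher (10%), including TGFB1, at 271 and 230 CPM and at 610 and 369 CPM (log2 difference 0.92, adjusted p = 0.0337), which did not pass without RUNX1::ERG replicate 1 (0.53). The NF-kappaB list, with CXCL2 and CXCL3, had 4 of 39 higher (10.3%) and 1 lower. The cytokine gene IL1A rose from 0.302 and 0.301 CPM to 2.31 and 1.55 CPM (log2 difference 2.63, edgeR adjusted p = 0.00806) and BCL3 from 3.23 and 1.52 CPM to 11.3 and 6.41 CPM (log2 difference 1.87, adjusted p = 0.0208), and neither passed without RUNX1::ERG replicate 1 (2.33 and 1.42). The death receptor gene TNFRSF10B fell from 81.8 and 30.2 CPM to 17.2 and 15.6 CPM (log2 difference -1.80, adjusted p = 0.0157), and did not pass with the DESeq2 Wald test. Without empty vector replicate 1 the log2 difference of TNFRSF10B was -0.96. The interferon list, with IFI6, had 5 of 33 higher (15.2%) and 0 lower, with IFITM3 from 97.9 and 101 CPM to 248 and 218 CPM (log2 difference 1.18, edgeR adjusted p = 0.00175) and its neighbour IFITM2, a close copy, from 31.9 and 31.0 CPM to 78.0 and 71.1 CPM.

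**Figure D4:**
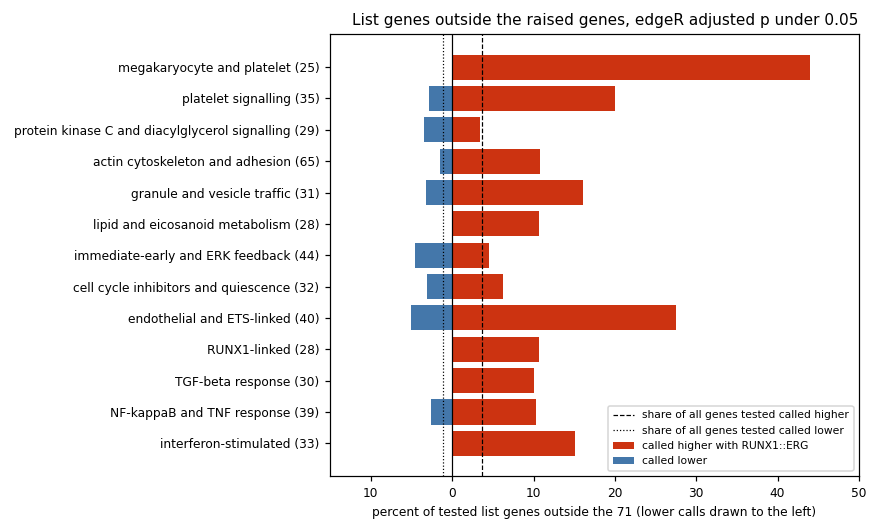
Percent of the tested genes of each list, members left out, that edgeR called higher (red, to the right) or lower (blue, to the left) with RUNX1::ERG at an adjusted p under 0.05. The number tested stands in brackets, and dashed and dotted lines are the shares over all genes (3.64% and 1.15%). The longest red bar is the megakaryocyte and platelet list (44%), and that of the protein kinase C list (3.45%) lies at the background. The 44% counts ITGA2B and ITGB3, which passed the limits of the selection and were set aside by name.

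The genes next to the members on the chromosome were also counted. Of 128 nearest tested neighbours on either side, 12 were called higher (9.38%, against 3.64% of all genes tested) and 0 lower, with a median log2 difference of 0.129 against -0.00167. F2RL2, a relative of F2R in the thrombin receptor family that lies beside it, was at 0.536 and 0.355 CPM with the empty vector and at 19.7 and 17.6 CPM with RUNX1::ERG (log2 difference 5.36, edgeR adjusted p = 5.47e-06). LTBP1, a binder of latent TGF-beta beside RASGRP3, rose from 81.9 and 75.4 CPM to 187 and 204 CPM (log2 difference 1.27, adjusted p = 0.00106). PPBP lies beside CXCL3. PPBP and LTBP1 are on the megakaryocyte and platelet list as well, so the 2 counts are not separate, and no test compared neighbours with other genes.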

How the data were processed

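Poly(A) RNA of 4 K562 libraries, 2 with the empty vector and 2 with RUNX1::ERG, was sequenced as paired-end reads. The authors deposited raw read counts per gene under NCBI gene numbers, 1 file per library. The submitters' processing notes name HISAT2 2.2.1, featureCounts 2.0.1 and hg19; the annotation, strand setting and counting of pairs are not given in the sources used here. The members and gene lists were chosen with earlier results of these data known.

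CPM was the count over the file's sum. Symbols came from a RefSeq table of GRCh38.p14 (92.2% of 25702 numbers matched), exons and positions from GENCODE on GRCh37. Counts were compared in R 4.3.3 with edgeR 4.0.16 (TMM, filterByExpr, quasi-likelihood test, Benjamini-Hochberg over 15394 genes, threshold 0.05). DESeq2 1.42.0, limma 3.58.1 voom, other scalings, filters and limits of the selection, a replicate block and leaving out each library were the alternatives. Named genes were the members of highest level or ratio, those on a list, those nearest a limit, and, per list, genes among the 2 of smallest p in each direction, not all of which are printed; most other members are named by role, and 3 members are not reported here by name. An exact permutation test of 2 libraries against 2 cannot go below 0.333. A count of 0 allows up to 3 counts, counting error only.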

Additional observations from a re-analysis of the deposited data

How the results depend on the processing

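The selection found 71 genes, 67 with TMM-scaled CPM (66 of the 71 among them) and 65 with DESeq2 size factors (64 of them). It found 47 with a minimum of 2 CPM, 100 with a minimum of 0.5 CPM, 128 with a fold limit of 2, 43 with a fold limit of 3, and 63 with ratio limits of 0.67 to 1.5. Applied to 3 libraries it found 83 to 131 genes, 131 with the first empty vector library dropped and 125 with the second RUNX1::ERG library dropped. These follow from the limits themselves. The median log2 difference of the members ran from 1.92 to 2.08 over all alternatives, and no member changed direction in any.

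edgeR called 737 genes, 75.98% of them higher. With no low-count filter there were 1500 (64.13% higher), and DESeq2 called 1204 (66.53% higher); the cause was not tested. With each library left out, the remaining library of that group being assumed to vary like the other group, the count ran from 286 (without RUNX1::ERG replicate 1) to 1336 (without empty vector replicate 2, 734 higher and 602 lower, 54.94% higher), with 1227 without empty vector replicate 1. Over the pathway lists 92 genes were called, members included, and 51 to 122 with a library left out, 51 without RUNX1::ERG replicate 1.

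Libraries with the same replicate number deviated from their group means together (r = 0.395 over the expressed genes), but neither labels nor methods tie a number to a batch, and no pairing was assumed. A replicate block gave 1733 called genes (62.44% higher), 147 of them on the lists, and the median of the members was 1.97.

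The log2 difference of GAPDH, close to 0, turned negative under RLE size factors (-0.0077), with no filter (-0.0070) and in DESeq2 (-0.0094), and ran from -0.095 to 0.11 with a library left out. CD36, which was not called, ran from -0.70 to 0.58, the latter when the second empty vector library was dropped. Counted per gene and alternative, and over the named genes that are not members alone, 20 values no longer passed the threshold and 22 newly passed it.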
